A study of Mus musculus with 120 samples.

Results

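Described here are 8 liver genes that lie outside the core clock loop: Usp2, Mfsd2a, Clpx, Ddhd2, Mtss1, Tnnc1, Grk5 and Acot7. They were picked by name for large daily rhythms in wild-type livers that differ in livers without Cry1 and Cry2, so their rhythms and the size of the genotype difference are given as a description, with no test. All 8 were found among the 12252 gene rows used, and 27 isoforms are listed for them. The data come from wild-type (WT) mice and from mice that lack both cryptochromes (Cry1-/- Cry2-/-, CryKO), sampled every 4 h from ZT0, when the lights came on, to ZT20 with 2 replicates at each of the 6 times. Liver RNA was separated into 5 populations: nuclear total (NT), nuclear poly(A) (NA), cytoplasmic total (CT), cytoplasmic poly(A) (CA) and unfractionated total (UT), which makes 120 libraries. A final E or I marks mRNA or pre-mRNA, so that NTI is nuclear total pre-mRNA, NAE nuclear poly(A) mRNA and CAE cytoplasmic poly(A) mRNA. WT mice were C57/BL6J males of 8 to 12 weeks in 12 h of light and 12 h of dark, with food only at night from 3 days before sampling. Food was limited to the dark phase in the CryKO mice as well, whose age, sex and background are not given in the sources used here, so that a difference between strains or cohorts cannot be told apart from the loss of the cryptochromes.

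The liver clock is a feedback loop in which CLOCK and BMAL1 (Arntl) switch on their own repressors, the cryptochromes and the Period proteins. The same factors, with the REV-ERB receptors and the PAR bZip factors, impose daily rhythms on many output genes, and feeding drives further rhythms. The 8 genes belong to different pathways. USP2 removes ubiquitin from proteins, and MFSD2A carries lysophosphatidylcholine across membranes. CLPX is the ATP-driven unfoldase of the mitochondrial ClpXP protease. DDHD2 is an intracellular lipase and MTSS1 an I-BAR protein that bends membranes and binds actin. GRK5 phosphorylates G protein-coupled receptors, TNNC1 is the calcium-binding troponin of heart and slow muscle, and ACOT7 cleaves long-chain acyl-CoA.

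Total counts per library (pre-mRNA and mRNA together, M for mega) ranged in WT from 44.42 to 62.13 M in NA, 31.8 to 43.95 M in NT, 17.42 to 26.68 M in CA, 7.07 to 15.26 M in CT and 26.69 to 42.8 M in UT. The CryKO ranges were 43.4 to 62.48 M in NA, 37.07 to 46.7 M in NT, 17.5 to 25.31 M in CA, 16.65 to 23.33 M in CT and 29.12 to 39.03 M in UT. Levels below are in CPM, counts relative to the mRNA total of the library after TMM scaling over the 24 libraries of a population. The summed level of 10 hepatocyte markers was 51000 to 111000 CPM in WT and 91000 to 130000 CPM in CryKO in UT. That of 6 endothelial markers was 214 to 352 CPM in WT and 351 to 442 CPM in CryKO, and their part in the results was not tested. In every WT population the library least like the rest was ZT4 replicate 1, with a median correlation across genes with the other 11 from 0.9 in NT to 0.937 in UT. In CryKO UT it was ZT20 replicate 1 (0.93, next lowest 0.96), in which 14.43% of the counts were pre-mRNA against 27.01% to 33.84% in the other 11, and in CryKO CA ZT12 replicate 2 (0.928, next lowest 0.952). Of the deleted genes, Cry1 mRNA in CAE was 3.61 to 30.1 CPM in WT and 3.65 to 6.19 CPM in CryKO. In NAE it was 7.65 to 60 CPM in WT and 58.7 to 94.4 CPM in CryKO, so that RNA of the Cry1 locus was abundant in the CryKO nuclei. Cry2 mRNA in CAE was 10.9 to 28.5 CPM in WT and 6.43 to 10.5 CPM in CryKO, without overlap. In NAE it was 52.8 to 206 CPM in WT and 160 to 222 CPM in CryKO, so that these ranges overlapped.

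The 300 bases around the annotated RefSeq starts (250 before, 50 after, GRCm38.p6) were searched on both strands for the E-box CACGTG, the related CACGTT, the D-box TTATGTAA and the nuclear receptor core AGGTCA, and no matches overlapped. Windows were listed for 6 of the 8 genes, all but Ddhd2 and Mtss1. Those of Usp2, Mfsd2a and Clpx are shown. Usp2 and Mfsd2a peaked at ZT12.3 and ZT12.5 in WT NAE, and Clpx at ZT22.4. The windows of Tnnc1, which peaked between these times, and of Grk5 and Acot7 held no match and are not shown. The Usp2 window lies at the start of its shorter isoforms Usp2-202 and Usp2-206, not at that of Usp2-201. Capitals mark the matches, and the sequences read in the direction of the gene. They lie at chr9:44084670-44084969 on the plus strand (Usp2), chr4:122961139-122961438 on the minus strand (Mfsd2a) and chr9:65294010-65294309 on the plus strand (Clpx).
Usp2: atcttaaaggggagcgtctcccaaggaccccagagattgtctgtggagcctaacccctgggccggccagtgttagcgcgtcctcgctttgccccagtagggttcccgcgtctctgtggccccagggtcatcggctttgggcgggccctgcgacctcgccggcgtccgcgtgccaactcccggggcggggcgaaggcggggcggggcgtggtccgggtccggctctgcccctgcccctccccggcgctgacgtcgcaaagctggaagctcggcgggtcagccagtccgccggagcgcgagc
Mfsd2a: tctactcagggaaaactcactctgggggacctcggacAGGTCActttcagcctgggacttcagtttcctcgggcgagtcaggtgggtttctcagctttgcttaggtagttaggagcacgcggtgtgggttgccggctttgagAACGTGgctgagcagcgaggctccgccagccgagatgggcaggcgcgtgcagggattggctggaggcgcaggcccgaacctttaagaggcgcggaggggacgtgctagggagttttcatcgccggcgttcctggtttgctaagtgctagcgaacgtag
Clpx: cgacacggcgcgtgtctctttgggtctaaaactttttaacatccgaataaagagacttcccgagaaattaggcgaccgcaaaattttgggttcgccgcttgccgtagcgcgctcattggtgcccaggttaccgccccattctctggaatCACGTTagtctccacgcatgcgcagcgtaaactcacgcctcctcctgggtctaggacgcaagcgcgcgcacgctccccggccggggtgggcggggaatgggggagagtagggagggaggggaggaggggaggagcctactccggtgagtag
The related E-box CACGTT was found once in the Mfsd2a window, where it reads AACGTG on the strand shown, and once in the Clpx window, and AGGTCA once in the Mfsd2a window, 213 bases before its start. Of 32851 windows of the same length, 4.68% held CACGTT and 16.3% held AGGTCA. The E-box CACGTG, which 7.15% of windows held, and TTATGTAA, which 0.938% held, were in none of the 6. The starts of Usp2-201 and of both Acot7 isoforms given with a start (Acot7-202 and Acot7-206) lie outside these windows and were not searched. These are matches of letters in a short window and not sites shown to be bound.

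Usp2 (chromosome 9, 44067021 to 44095627, plus strand, GRCm38) had the widest WT rhythm of the 8 genes in NAE. Its WT NAE values, given for replicates 1 and 2 in CPM, were 5.59 and 8.01 at ZT0, 6.65 and 5.43 at ZT4, 100.7 and 166.2 at ZT8, 226.2 and 138.4 at ZT12, 87.7 and 48 at ZT16 and 38.7 and 14.8 at ZT20. Both mice at ZT0 and ZT4 lay far below every mouse of ZT8 to ZT16. In CryKO the 12 libraries ran from 99.7 to 205 CPM with a median of 130 CPM, and the mean of the highest time (ZT12) was 1.6-fold that of the lowest (ZT4), against 30.2-fold between the same times in WT. No CryKO library came near the WT trough, and all 12 CryKO values fell inside the WT range. In bulk RNA, a difference in the number of cells with a transcript and one in its amount per cell cannot be told apart. The trough-to-peak range of a fitted 24 h curve was 5.07 (log2 scale) in WT NAE, from 4.75 to 5.38 with a mouse left out, and 0.60 in CryKO.

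The cytoplasmic poly(A) libraries differed in their ceiling. WT CAE of Usp2 was 1.6 and 0.9 CPM at ZT0, 1.7 and 0.881 at ZT4, 22.2 and 20.9 at ZT8, 29.2 and 27.4 at ZT12, 14.5 and 8.75 at ZT16 and 4.35 and 4.48 at ZT20. In CryKO CAE ranged from 28 to 53.1 CPM (median of the 12 libraries 37.3), and 11 of 12 libraries exceeded every WT library. The mean of CryKO was 3.54-fold that of WT in CAE and 1.98-fold in NAE. For mRNA in CT it was 2.88-fold, with 6 of 12 CryKO libraries above every WT library. In UT it was 2.01-fold, with 0 of 12 above. The fitted peak in WT was at ZT12.3 in NTI, ZT12.3 in NAE and ZT12.2 in CAE, and the fitted range was 4.07, 5.07 and 4.74 on the log2 scale.

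**Figure D1:**
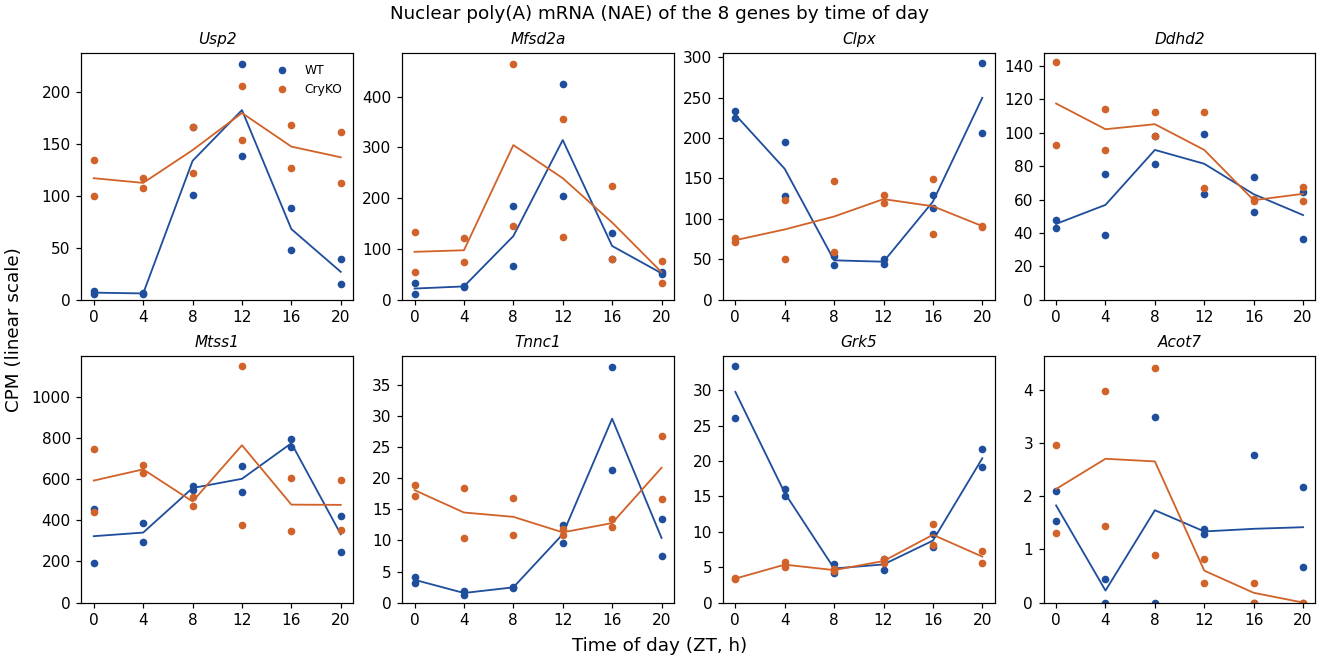
NAE level (CPM, linear scale, each panel with its own axis) of the 8 genes against time of day, with 1 point per library and lines through the means of 2 replicates in WT (blue) and CryKO (orange). Usp2 in WT ran from 5.43 to 226 CPM, while its CryKO libraries stayed between 99.7 and 205 CPM, and the Grk5 CryKO libraries stayed at or below 11.1 CPM.

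Mfsd2a (chromosome 4, 122946850 to 122961188, minus strand) peaked with Usp2 in WT. Its WT NAE values were 10.3 and 33.8 CPM at ZT0, 25 and 27.3 at ZT4, 66.2 and 184.4 at ZT8, 423.8 and 205.0 at ZT12, 130.7 and 81 at ZT16 and 54.4 and 49.9 at ZT20. The ZT12 mice were above all others, although the replicates of ZT8 and ZT12 differed widely. In CryKO it was 133.3 and 55.2 at ZT0, 73.4 and 121.4 at ZT4, 463.3 and 145.8 at ZT8, 122.6 and 355.9 at ZT12, 81 and 223.2 at ZT16 and 32.7 and 76 at ZT20. Replicates of a time lay far apart, and the pooled SD of replicates in NAE was 0.95 in CryKO and 0.75 in WT (log2 scale). The curve fitted to CryKO NAE had a range of 2.16 and a peak at ZT10, against 3.71 and ZT12.5 in WT. The replicate series peaked at ZT7.48 and ZT11.8 in CryKO and at ZT13 and ZT11.6 in WT. With a mouse left out the CryKO range lay between 1.67 and 2.73. In CAE the WT libraries ran from 1.96 CPM at ZT0 to 45.7 CPM at ZT12, and the CryKO libraries from 4.17 CPM at ZT20 to 59.8 CPM at ZT8.

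Clpx (chromosome 9, 65294260 to 65330658, plus strand) had the opposite timing. WT NAE was 224.5 and 232.9 CPM at ZT0, 195.4 and 128.3 at ZT4, 43.5 and 53.8 at ZT8, 43.6 and 50.4 at ZT12, 113.2 and 129.3 at ZT16 and 206.4 and 292.7 at ZT20. Levels were low through ZT8 and ZT12 and highest around the start of the light phase. The CryKO values were 76.3 and 71 at ZT0, 49.9 and 123.8 at ZT4, 58.5 and 147.2 at ZT8, 129.1 and 119.7 at ZT12, 81.6 and 149.6 at ZT16 and 90.3 and 91.6 at ZT20. They lay between the WT trough and the WT peak and the replicate series peaked at ZT15.6 and ZT11, with a fitted range of 0.72 against 2.70 in WT. In WT the fitted peak came at ZT21.6 in NTI, ZT22.4 in NAE and ZT23.6 in CAE, and both replicate series gave ZT23.6 in CAE.

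Grk5 (chromosome 19, 60889749 to 61095968, plus strand) peaked close to Clpx but differed from it in CryKO. WT NAE was 33.4 and 26.1 CPM at ZT0, 16.1 and 15 at ZT4, 5.4 and 4.23 at ZT8, 4.6 and 6.18 at ZT12, 7.79 and 9.73 at ZT16 and 21.7 and 19.1 at ZT20. In CryKO it was 3.46 and 3.32 at ZT0, 4.99 and 5.74 at ZT4, 4.68 and 4.51 at ZT8, 5.55 and 6.19 at ZT12, 8.11 and 11.1 at ZT16 and 5.65 and 7.34 at ZT20. The CryKO livers thus stayed below the WT median of 12.4 CPM, and 2 of the 12 were below every WT library. They were highest at ZT16, and the curve fitted to CryKO NAE had a range of 0.98 and a peak at ZT15.5. The replicate series gave ZT15 and ZT15.8, and the WT peak was at ZT23. The mean of WT was 2.4-fold that of CryKO in NAE and 2.45-fold in CAE. NTI was 146 to 438 CPM in WT and 160 to 332 CPM in CryKO, with a mean of WT 1.12-fold that of CryKO. Nuclear poly(A) pre-mRNA (NAI) had a mean of 12.5 CPM in WT and 5.38 CPM in CryKO, 2.32-fold. The fitted WT range was 1.27 in NTI, 2.40 in NAI, 2.69 in NAE and 2.84 in CAE (log2 scale).

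Tnnc1 (chromosome 14, 31208312 to 31211729, plus strand) peaked later than Usp2 and Mfsd2a and before Clpx, at low counts. WT NAE was 3.13 and 4.19 CPM at ZT0, 1.93 and 1.14 at ZT4, 2.56 and 2.34 at ZT8, 9.62 and 12.5 at ZT12, 21.4 and 37.9 at ZT16 and 13.4 and 7.45 at ZT20. Both ZT16 mice exceeded all other WT mice. CryKO NAE was 10.4 to 26.8 CPM at all times, between the WT trough and the WT peak. The fitted range was 4.11 in WT and 0.78 in CryKO, and the WT peak was at ZT16 in NTI, ZT16.3 in NAE and ZT17.4 in CAE. In UT 1 WT library, ZT0 replicate 2, had 5.19 CPM against 1.13 CPM in the other mouse of that time. With it the fitted UT peak was at ZT19.7, and without it at ZT17.5. Of 15 markers of striated muscle only Tnnt1 has a row in the tables used here, and it was 0.107 to 1.36 CPM in WT and 0 to 0.859 CPM in CryKO in UT. The gene Nisch overlaps Tnnc1 on the other strand, as 1 gene of the table does for Grk5, and the counts were made with strand. None of the 8 genes overlaps another gene of the table on its own strand.

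Mtss1 (chromosome 15, 58941234 to 59082005, minus strand) and Ddhd2 (chromosome 8, 25725346 to 25754596, minus strand) had narrower rhythms. WT CAE of Mtss1 was 37.3 and 38.5 CPM at ZT0, 53.7 and 62.6 at ZT4, 100.4 and 100.6 at ZT8, 120.1 and 123.3 at ZT12, 146.2 and 129.7 at ZT16 and 65.1 and 67.1 at ZT20. These replicates were close, and CryKO CAE stayed between 91.5 and 138 CPM, within the upper WT range. The fitted Mtss1 range in WT was 0.84 in NTI, 1.29 in NAE and 1.78 in CAE on the log2 scale, and in CryKO 0.29, 0.34 and 0.19. In CryKO NAE the replicates were not close: their series had ranges of 1.11 and 0.85 with peaks at ZT2.99 and ZT12.2. The joint curve is thus flatter than either. At ZT12 these libraries held 377.1 and 1150.1 CPM, against at most 793 CPM in WT.

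WT CAE of Ddhd2 was 13.3 and 10.1 CPM at ZT0, 10.7 and 11.3 at ZT4, 15.7 and 19.7 at ZT8, 26.5 and 25.8 at ZT12, 21.5 and 20.6 at ZT16 and 16.3 and 16.3 at ZT20. In CryKO it was 23.6 and 23.9 at ZT0, 28.6 and 26.4 at ZT4, 36.1 and 23 at ZT8, 21.1 and 16.4 at ZT12, 15.7 and 13.4 at ZT16 and 17.1 and 19.5 at ZT20. The high values thus came at ZT0 to ZT8 in CryKO and at ZT12 and ZT16 in WT. The fitted range in CAE was 1.22 in WT and 0.97 in CryKO, and the peak was at ZT13.5 and ZT4.81. In WT the peak was at ZT10.1 in NTI and ZT10.4 in NAE, where the replicate series gave ZT11.6 and ZT8.05.

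Acot7 (chromosome 4, 152178134 to 152271855, plus strand) went against the description as a strong rhythmic output. In UT its WT libraries held 13.1 to 21.9 CPM (median 17.6) and its CryKO libraries 13.3 to 23.5 CPM, with fitted ranges of 0.40 and 0.47. In the poly(A) libraries it was low and uneven: WT NAE had a median of 1.34 CPM and listed it at 0 in 3 of 12 libraries, and CryKO NAE also in 3 of 12. The CryKO NAE range of 5.01 on the log2 scale rests on libraries listed at 0, and the WT NAE range moved between 0.10 and 2.90 with a mouse left out. In CAE the fitted range was 1.27 in WT (0.70 to 1.98 with a mouse left out) and 1.58 in CryKO. Both WT ZT16 libraries were listed at 0 in CAE. The CryKO mean in CAE was 2.09-fold that of WT, and 5 of 12 CryKO libraries exceeded every WT library. The Acot7 range ranked 891 of 11307 genes in WT CAE. Its range ranked 5053 of 11728 genes in WT UT, while that of Usp2 ranked 15.

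**Figure D2:**
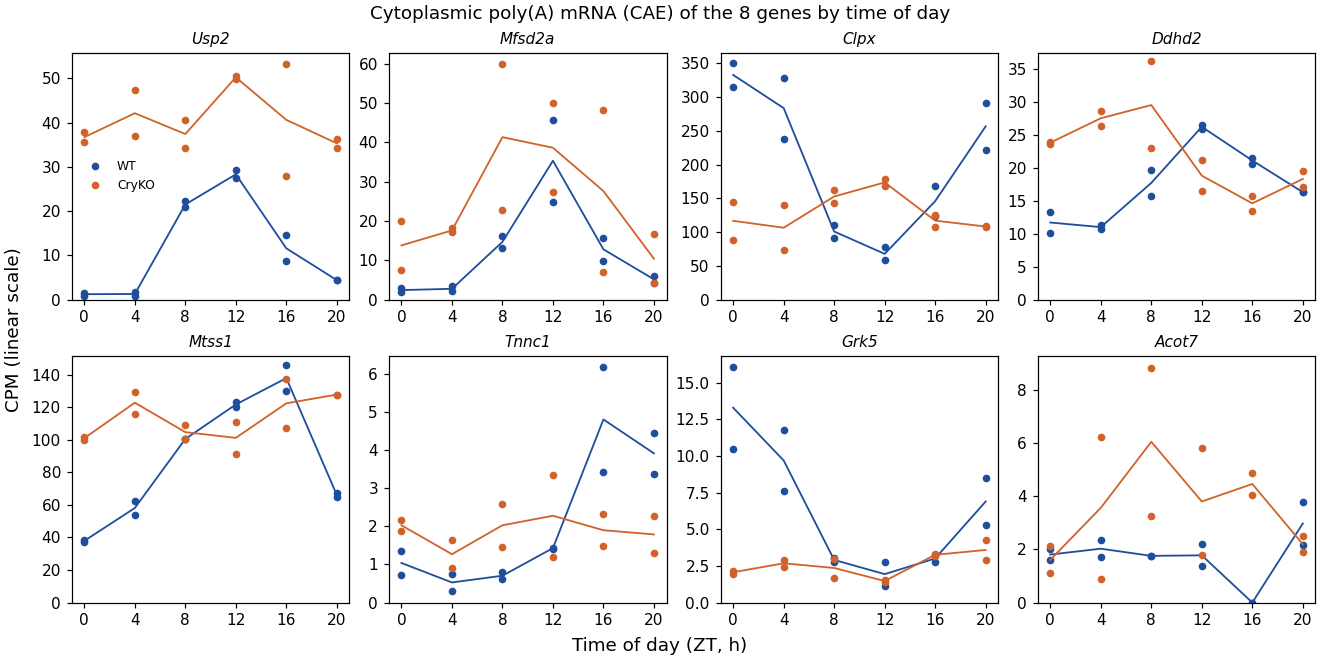
CAE level (CPM, linear scale, each panel with its own axis) of the 8 genes against time of day, 1 point per library, with lines through the means of 2 replicates in WT (blue) and CryKO (orange). The Usp2 CryKO libraries (28 to 53.1 CPM) lie, all but 1, above the highest WT library (29.2 CPM), and the Ddhd2 curves are highest at different times in the 2 genotypes.

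**Figure D3:**
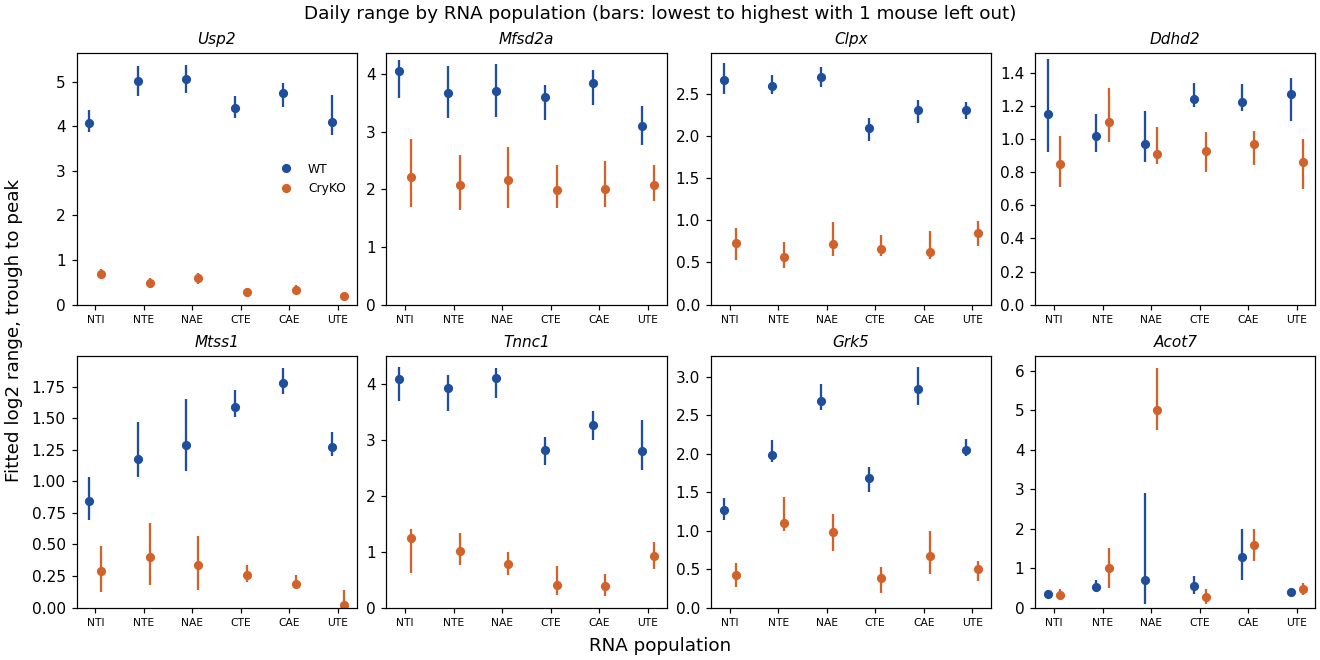
Fitted daily range on the log2 scale for 6 RNA populations in WT (blue) and CryKO (orange), with vertical bars from the lowest to the highest value when 1 mouse was left out. The Mtss1 WT range runs from 0.84 in NTI to 1.78 in CAE and that of Grk5 from 1.27 to 2.84, while Usp2 stays between 4.07 and 5.07 and the CryKO value of Acot7 in NAE (5.01) rests on libraries listed at 0.

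Levels between genes were compared as RPKM (counts scaled to the mRNA counts of the library and the length of the isoforms). In WT NAE the mean was 101.5 ± 36.6 for Mtss1, 50.9 ± 31.4 for Clpx, 49.5 ± 53.8 for Mfsd2a, 35.4 ± 36.3 for Usp2, 19.9 ± 6.61 for Ddhd2, 14 ± 14.8 for Tnnc1, 2.19 ± 1.49 for Grk5 and 0.908 ± 0.781 for Acot7 (SD over all times, n = 12). In this order Clpx, Mfsd2a and Usp2 differed by less than their spread over the day. In WT CAE the order began with Clpx (62 ± 33.1) and Mtss1 (15.9 ± 6.51), followed by Mfsd2a (5.05 ± 5.16), Usp2 (5 ± 4.32), Ddhd2 (3.96 ± 1.19) and Tnnc1 (2.52 ± 2.22), and ended with Acot7 (1.07 ± 0.677) and Grk5 (0.86 ± 0.572).

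Over the 12 WT NAE libraries the log2 levels of Usp2 and Mfsd2a correlated with r = 0.93, and those of Clpx and Grk5 with r = 0.93, whereas Usp2 and Grk5 had r = -0.88. In CryKO these values were 0.10, 0.44 and 0.18. They describe libraries that share a time course, and no test was made. By the same measure over the 24 NAE libraries of both genotypes, the nearest genes to Usp2 were Wee1 (r = 0.95), Ciart (0.95) and Per3 (0.94). Within CryKO alone these were 0.19, 0.75 and -0.19, against 0.97, 0.95 and 0.95 within WT, and they were 0.40 for Tnnc1 with Mtrr and 0.34 for Clpx with Rnf144b. Among those to Tnnc1 were Per2 (0.91) and Mtrr (0.88), those to Clpx were Desi2 (0.88), Dtx4 (0.88) and Rnf144b (0.84), and among those to Grk5 were Smagp (0.89) and Sumo3 (0.87). Those to Mfsd2a were Rhbdd2 (0.84), 1810055G02Rik (0.83) and Pim3 (0.80), and those to Ddhd2 Ak4 (0.86), Rgs16 (0.85) and Cdk18 (0.84). For Mtss1 (Mfsd2a 0.71, Homer2 0.71, Riok2 0.70) and Acot7 (Map3k10 0.70, Rbm42 0.70, Map1s 0.69) the nearest genes were less alike.

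The rhythm test was run on all genes to place the relatives of the 8 (edgeR's quasi-likelihood test of a 24 h curve, Benjamini-Hochberg adjusted p under 0.05). It called 2.25% of 11863 genes in WT NAE and 2.91% of 11307 in WT CAE. Of the 16 core clock and output genes tested, 11 passed in NAE and 13 in CAE, with a median range of 3.28 and 3.02 against 0.40 and 0.51 over all genes. Dbp, a PAR bZip factor, had a range of 7.68 in NAE (adjusted p = 0.00332), Ciart, a repressor of CLOCK and BMAL1, 6.95 (adjusted p = 0.000348), and Nr1d1, which encodes REV-ERB alpha, 6.14 in NAE (adjusted p = 0.00132) and 6.52 in CAE (adjusted p = 0.0196). The call of Nr1d1 in CAE was lost without either WT ZT16 mouse (adjusted p = 0.0643 and 0.0576) or WT ZT20 replicate 1 (adjusted p = 0.051). None of the relatives of Usp2 (39 ubiquitin-specific proteases tested), Mfsd2a (19 in NAE, 17 in CAE), Clpx (20), Mtss1 (15), Tnnc1 (1) and Acot7 (13) passed in either population, and their median ranges were 0.23 to 0.79. Among 18 lipases related to Ddhd2, Mgll, the monoglyceride lipase (range 1.59, adjusted p = 0.0271), and Abhd6 (1.31, adjusted p = 0.029) passed in CAE, and none in NAE. Of 12 receptor kinases, arrestins and RGS genes, Rgs16, which speeds up GTP hydrolysis by G alpha subunits, passed in NAE (6.56, adjusted p = 0.0391). These 3 calls were lost in 6 to 10 of 17 alternatives each, mostly with a mouse left out. Abhd6 passed in NAE by DESeq2 (1.65, adjusted p = 0.013), which called 7.94% of all genes there. Rgs16 passed in CAE without WT ZT0 replicate 2 (adjusted p = 0.0285) or WT ZT4 replicate 1 (adjusted p = 0.0209). Relatives that passed in neither population were not followed under the alternatives.

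The rule that chose these genes did not use where their mRNA lay, and this was tested with NAE against CAE over all times (edgeR's quasi-likelihood test, adjusted p under 0.01, 24 libraries per genotype). In WT 3 of the 8 were higher in the nucleus, against 42.7% of all genes, and 1 was higher in the cytoplasm, against 36.9%. The 8 genes had a median log2 NAE/CAE ratio of 1.06, and all genes 0.16. TMM scaling makes these ratios relative to other genes, so that higher in the nucleus does not mean more molecules there. The authors calibrated their own ratio to mRNA copies per cell, and its median lay on the side of the cytoplasm. Mfsd2a was higher in the nucleus in 12 of 12 mice, with log2 ratios from 1.31 to 2.69 (fitted 2.13, SE 0.57, adjusted p = 0.00117). The fitted ratio was 1.48 for Mtss1 (SE 0.25, adjusted p = 4.95e-06) and 0.89 for Ddhd2 (SE 0.19, adjusted p = 9.7e-05). Clpx was higher in the cytoplasm in 12 of 12 mice, with log2 ratios from -2.34 to -0.98 (fitted -1.48, SE 0.35, adjusted p = 0.000385).

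Usp2 and Tnnc1 missed the threshold in WT, although the nucleus was higher in 12 of 12 mice for both. The fitted ratio was 1.62 for Usp2 (SE 0.67, adjusted p = 0.0275) and 1.22 for Tnnc1 (SE 0.53, adjusted p = 0.0371). The test held no time term, so that their rhythm counted as spread. With the mouse as a block, which pairs the libraries of a liver, both passed and the counts were 5 higher and 1 lower, against 44.6% and 38.3% of all genes, at 1.49 for Usp2 (adjusted p = 1.33e-08) and 1.04 for Tnnc1 (adjusted p = 4.05e-05). Time as a factor gave the same counts, against 43.8% and 37.9% of all genes. Usp2 was then at 1.53 (adjusted p = 1.33e-08) and Tnnc1 at 1.02 (adjusted p = 0.000101). Grk5 had a ratio of 0.17 (SE 0.40, adjusted p = 0.702), and Acot7, listed at 0 in some libraries, -1.38 (SE 0.64, adjusted p = 0.0484). The scaling moved these values, and by library size alone the median of all genes was 1.33 and not 0.16, 79.1% of the called genes were higher in the nucleus and not 53.7%, Clpx (-0.28, adjusted p = 0.447) was no longer called, and Usp2, Tnnc1 and Grk5 (1.38, adjusted p = 0.00235) passed.

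In CryKO 5 of the 8 were higher in the nucleus, against 42.7% of all genes, and 2 in the cytoplasm, against 39.6%. The fitted log2 ratios were 0.71 for Usp2 (SE 0.12, adjusted p = 4.37e-06), 1.59 for Mfsd2a (SE 0.43, adjusted p = 0.0012), 0.95 for Ddhd2, 1.26 for Mtss1 and 1.96 for Tnnc1 (SE 0.19, adjusted p = 2.13e-10). Clpx was at -1.46 and Acot7 at -2.45 (SE 0.59, adjusted p = 0.000424), a value that by library size alone was -1.55 (adjusted p = 0.0154). By library size alone the median of all genes in CryKO was 0.98 and not 0.09, and 72.6% and not 51.9% of the called genes were higher in the nucleus. Grk5 then passed as well (adjusted p = 5.45e-05), which made 6 of the 8 higher and 1 lower. The test of a difference in this ratio between the genotypes called 1.34% of all genes upwards in CryKO and 1.45% downwards, and none of the 8 (edgeR, 0 at an unadjusted p under 0.05, and 0 by DESeq2). The direction of these calls depended on the scaling: 48% were upwards with TMM, 68.1% with RLE and 1.82% by library size alone. The largest estimates were -1.03 for Acot7 (SE 0.88), -0.88 for Usp2 (SE 0.69, adjusted p = 0.469) and 0.77 for Tnnc1 (SE 0.58, adjusted p = 0.449). The model held no time term, so that the rhythm of a gene counted as spread, and a missing call does not show equal ratios. Over same-numbered pairs, which share a time of day, the mean log2 ratio of Usp2 was 1.48 ± 0.51 in WT and 0.7 ± 0.43 in CryKO. That of Tnnc1 was 1.01 ± 0.62 and 1.98 ± 0.53 (SD, n = 12). With the mouse as a block Usp2 (-0.76, adjusted p = 0.00655) and Tnnc1 (0.96, adjusted p = 0.00928) passed, but the CryKO numbers do not pair all libraries, as the check in the methods shows. The block also takes out the time of day.

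**Figure D4:**
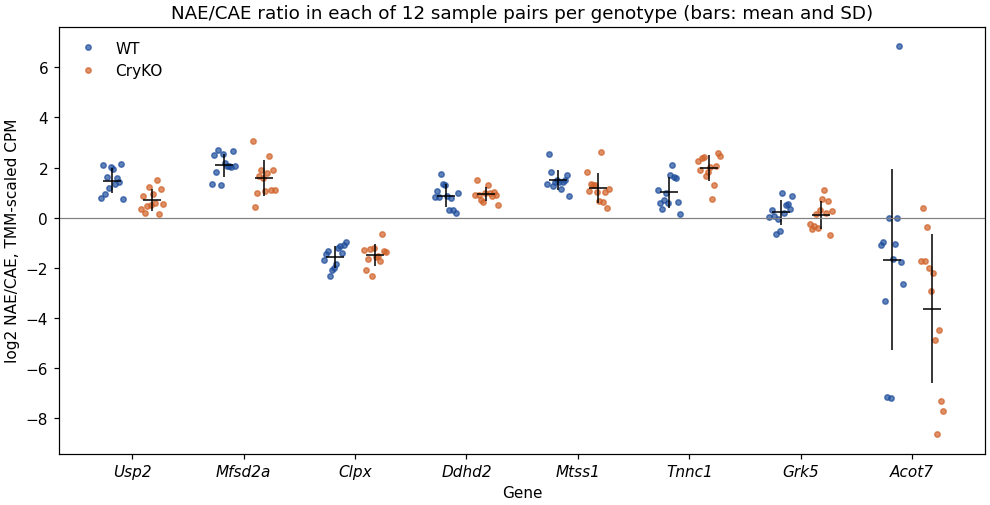
Log2 ratio of NAE to CAE (TMM-scaled CPM with 0.5 counts added) for each of the 12 same-numbered library pairs of WT (blue) and CryKO (orange), with the mean and SD in black. Clpx lies below 0 in all 24 pairs, Mfsd2a, Usp2, Ddhd2, Mtss1 and Tnnc1 lie above 0 in all 24, and Acot7 spreads from -8.63 to 6.84 with libraries at 0 included.

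Poly(A) selection was compared with total RNA in WT nuclei. For mRNA it called 23.2% of all genes higher and 23.8% lower in the poly(A) libraries, and of the 8 only Acot7, which was lower in poly(A) by 2.74 on the log2 scale (SE 0.52, adjusted p = 7.1e-05), with 8.29 CPM in NT and 1.34 CPM in NA as medians. The other estimates lay between -0.49 (Grk5, SE 0.34, adjusted p = 0.23) and 0.42 (Tnnc1, SE 0.57, adjusted p = 0.551). With the mouse as a block all 8 passed, at a background of 39% higher and 32.8% lower: Mfsd2a (0.23), Ddhd2 (0.29) and Tnnc1 (0.40) were higher in poly(A), and Usp2 (-0.20), Clpx (-0.21), Mtss1 (-0.26), Grk5 (-0.60) and Acot7 lower. The 2 library types were made with different kits, so that kit and RNA population cannot be told apart.

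Pre-mRNA was lower in the poly(A) libraries for 84.8% of all genes and higher for 0.805%, with a median log2 ratio of -2.01. Of the 8, 6 were lower. Grk5 stood at -4.57 (SE 0.34, adjusted p = 1.34e-12), Acot7 at -3.95, Mtss1 at -3.04, Usp2 at -2.95, Clpx at -2.75 and Ddhd2 at -2.11. Mfsd2a (-1.35, SE 0.61, adjusted p = 0.0415) passed with the mouse as a block or time as a factor (-1.30, adjusted p = 9.37e-12 with the block). Tnnc1 (0.18, SE 0.66, adjusted p = 0.801) was not called, and its sign turned with the block (-0.09). Pre-mRNA made up 96.6% ± 0.798 of the Acot7 counts and 93.9% ± 1.56 of those of Grk5 in WT NT (SD, n = 12), against 75.5% ± 2.13 of all counts. The value was 69.7% ± 7.1 for Usp2 and 55.1% ± 12.2 for Tnnc1.

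Isoform shares, given as percent of the mRNA counts of a gene and not per length, differed between populations. Usp2-201, which starts at 44067021 on chromosome 9, held 86.2% ± 3.81 of Usp2 counts in WT NA and 83.8% ± 7.46 in CA, but 66% ± 7.99 in NT and 57.4% ± 9.16 in UT (SD, n = 12). Usp2-202 and Usp2-206 start inside the window printed above, at 44084939 and 44084950. Usp2-202 held 25% ± 7.01 in UT and 0.124% ± 0.242 in NA, and Usp2-206 16.7% ± 8.57 and 0.676% ± 1.46. In CryKO NT Usp2-206 was listed at 0 in all 12 libraries, against 14.7% ± 11.1 in WT. In the other CryKO populations its mean share was 9.03% ± 4.14 in CT, 5.59% ± 3.81 in UT, 2.36% ± 2.33 in CA and 0.84% ± 1.53 in NA. The counts of these overlapping isoforms are kallisto's division of shared reads, and the part of the library kit in the split was not tested.

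The isoform test between nucleus and cytoplasm in WT (NA against CA, edgeR's diffSpliceDGE, adjusted p under 0.01) covered 11 of the 27 isoforms. It found 3 with a larger share in the nucleus, against 30.7% of all isoforms tested, and 0 with a larger share in the cytoplasm, against 18.1%. Isoforms needed at least 10 counts in 50% of the NA and CA libraries, so the deeper NA libraries alone could carry one through. WT CA mean counts were 0.431 for Ddhd2-205, 2.73 for Tnnc1-201 and 6.15 for Ddhd2-203, against 202, 171 and 90.5 in WT NA. By these means the 3 isoforms entered the test through the NA libraries, where they are high. The filter thus favoured the direction of their calls. Their adjusted p-values are given as a description and not as support for a larger share in the nucleus. The cytoplasmic side of these 3 calls also rests on few counts. Ddhd2-205, annotated as a target of nonsense-mediated decay, held 10.3% ± 2.34 of Ddhd2 counts in NA and 0.185% ± 0.383 in CA (log2 difference from the gene 6.23, adjusted p = 2.19e-35). Tnnc1-201, annotated with a retained intron, held 51.9% ± 10.6 in NA and 6.12% ± 7.79 in CA (3.12, adjusted p = 0.000283). Ddhd2-203 held 4.62% ± 1.06 and 1.84% ± 1.62 (1.33, adjusted p = 0.00264), and lost its call without the WT ZT16 replicate 1 mouse (1.19, adjusted p = 0.0133). With the mouse as a block Clpx-201 (0.67, adjusted p = 0.00276) was also higher in the nucleus and Tnnc1-202, the coding isoform, higher in the cytoplasm (-1.02, adjusted p = 6.45e-05). In CryKO the shares in NA and CA were 10.8% ± 1.63 and 0.487% ± 0.549 for Ddhd2-205 and 59.8% ± 5.84 and 4.46% ± 5.25 for Tnnc1-201. Clpx-204, also annotated with a retained intron, held 25.7% ± 3.93 of Clpx counts in WT NT and was listed at 0 in every WT NA and CA library.

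**Figure D5:**
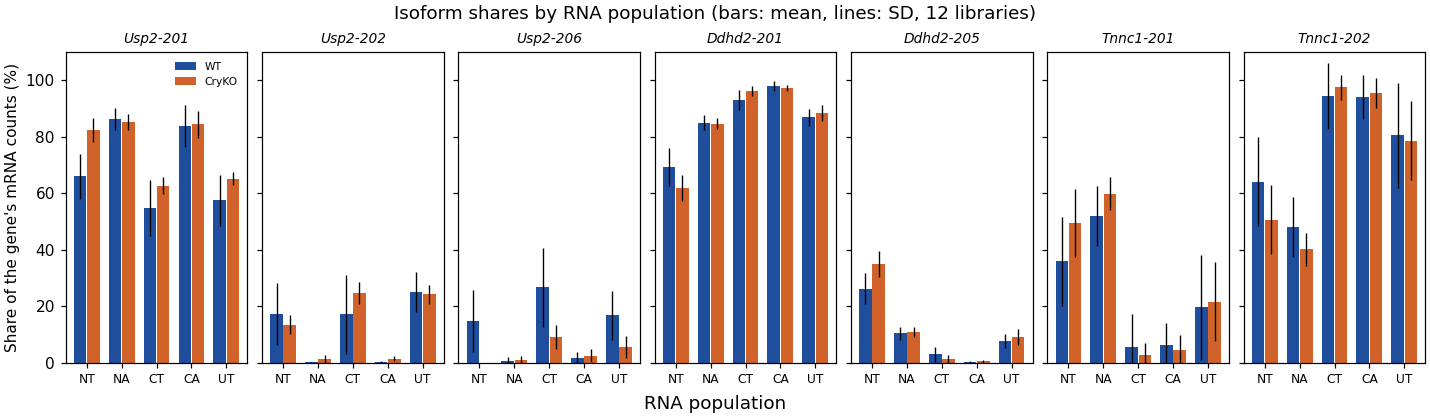
Share of the mRNA counts of the gene (percent) held by 7 isoforms in 5 RNA populations of WT (blue) and CryKO (orange), with bars for the mean and lines for the SD of 12 libraries. Usp2-202 reaches 25% in WT UT and 0.124% in WT NA, and Tnnc1-201 reaches 51.9% in WT NA and 6.12% in WT CA.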

How the data were processed

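Reads were assigned by the authors to pre-mRNA and mRNA sequences of GRCm38 at once, with strand, by kallisto 0.46.0. The deposited values are expected counts per isoform and gene, not normalized, from a stranded poly(A) kit and a ribosome-depletion kit. Of 12383 gene rows, 131 that repeat another were merged, and 63 share a symbol. All columns were mapped to samples by name.

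Expected counts were rounded and tested in R 4.3.3 with edgeR 4.0.16 (quasi-likelihood, TMM factors from mRNA, at least 10 counts in 50% of libraries, Benjamini-Hochberg over all genes) and alternatively with DESeq2 1.42.0. Localisation and poly(A) tests used an adjusted p under 0.01, and rhythms a 24 h cosine and sine at 0.05. Tables were handled in Python 3.11.15 (pandas 2.3.3). Log2 CPM had 0.5 counts added. Annotation is GENCODE of the same build, and promoter windows are RefSeq's. The tests were tried on simulated counts with known changes. These were drawn independently for each library, without an effect shared by the libraries of a liver. Those for the localisation tests held no rhythm, so the simulation does not cover these features of the data.

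The genes, lists and alternatives were chosen with earlier results of these data known. Named genes are the 8, Cry1 and Cry2, the 3 nearest to each over 24 NAE libraries (mean of at least 1 CPM), and up to 3 rhythmic genes per list, some of which are not reported here. The 12 WT mice gave all populations, so that equal numbers pair WT libraries, and deviations of NAE and CAE from the time means correlated at every time (r from 0.225 to 0.592). In CryKO r was -0.222 at ZT0 and 0.145 to 0.542 at other times, so these numbers do not pair all libraries. Whether the CryKO replicates are separate animals rests on the series description. Each time has 2 replicates, no pair of libraries was identical, and p-values measure the spread between these samples.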

Additional observations from a re-analysis of the deposited data

How the results depend on the processing

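The share of genes whose NAE/CAE ratio differed between genotypes was 2.8%, 16.3% by library size only, 5.08% with the mouse as a replicate block and 1.52% to 3.78% with a mouse left out. In CryKO a mouse stands here for the libraries of 1 replicate number, which need not come from 1 liver. That share was more than 1.5 times lower without any single mouse of CryKO ZT4 or ZT20 or WT ZT16. It was also lower to that degree without replicate 1 of CryKO ZT12 (the lowest), WT ZT12 or WT ZT20, and without replicate 2 of CryKO ZT0 or ZT8. For poly(A) against total mRNA it was 47.1%, and 71.8% with the block. Rhythmic genes were 2.25% in NAE and 7.94% by DESeq2. With a mouse left out they were 0.962% to 3.05%, and more than 1.5 times fewer without either ZT8 or ZT12 mouse or ZT0 replicate 1. In CAE they were 2.91%, 8.48% by DESeq2, 1.16% by library size only and 1.89% with the replicate number as a block. With a mouse left out they were 0.87% to 4.6%, highest without WT ZT4 replicate 1 and more than 1.5 times fewer without any single mouse of ZT8, ZT12, ZT16 or ZT20. The causes were not tested. The other shares of calls, both directions together, stayed within 1.5 times under every alternative. By direction, the NAE/CAE calls of WT went from 42.7% higher and 36.9% lower to 66.6% and 17.7% by library size only, and those of CryKO from 42.7% and 39.6% to 61.8% and 23.3%. Pre-mRNA higher in poly(A) went from 0.805% to 2.02% with the block.

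Estimates that turned sign were all uncalled. For the difference in ratio between genotypes, Clpx went from 0.05 to -0.29 by library size only and to between -0.05 and 0.13 with a mouse left out, and Ddhd2 from 0.09 to -0.22 by library size only. Grk5 went from -0.02 to 0.04 by RLE size factors and by DESeq2, to 0.1 with time as a factor and to between -0.13 and 0.07 without single mice. Tnnc1 pre-mRNA in poly(A) against total went from 0.18 to -0.09 with the block and -0.02 with time as a factor. Usp2-201 went from -0.01 to 0.02 and Usp2-205 from 0.11 to -0.05 with the block, and with a mouse left out they were between -0.02 and 0.02 and between -0.08 and 0.21.

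With the replicate block no call of the 8 genes was lost, and those gained are given beside their results. Fitted ranges moved by more than the replicate SD in 21 of 1536 values with a mouse left out, and in 20 of 128 when the observed highest minus lowest time mean replaced the curve. Peak times moved by more than the SD of the replicate peaks in 129 of 1536. With 2 mice a time, genes of few counts (Tnnc1, Acot7) limit what can be seen.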
